A study of Mus musculus with 2 samples.

Results

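Immediate early and stress response genes were examined in single cells of the mouse spinal cord. The set holds 34 of the 27998 genes in the deposited matrices, chosen as the rows whose symbol matched a list of genes known as immediate early genes or as markers of the response to tissue dissociation. The list was drawn up with earlier results of these data known. Of the 34 genes, 33 had at least 20 unique molecular identifiers (UMIs, tags that each mark 1 captured RNA molecule) over both libraries and are called measured. The exception was Egr3, a zinc finger factor of the EGR family, with 1 uninjured and 2 injured UMIs.

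Immediate early genes are switched on within minutes of a stimulus, and their transcription needs no newly made protein. Signals carried by MAP kinases reach factors already bound at their promoters, such as serum response factor at CArG boxes and CREB at cyclic AMP response elements, and many of their products shut the signal down again. In microglia, the resident macrophages of the central nervous system, these genes respond to injury and to inflammatory stimuli, and digestion of tissue with warm enzymes is known to induce them too.

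Both libraries came from C57BL/6J mice with the alleles Cx3cr1-CreER::Rosa26-tdTomato, in which Cre under the Cx3cr1 gene marks microglia and other resident macrophages after 4-hydroxytamoxifen. All mice received 2 injections of 1 mg 4-hydroxytamoxifen at postnatal week 4, and cords were collected 4 weeks afterwards. One library came from uninjured age-matched cord and the other from cord 5 days after lysolecithin, a lipid that strips myelin. Per the labels, both cords were digested in 2 mg/ml collagenase for 1 h at 37 °C, and tdTomato-positive cells were sorted through scatter gates against doublets. The labels give no library prepared without the warm digestion, so the part of the digestion in any level was not tested. The number and sex of the animals in each library are not stated.

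The kept cells numbered 695 uninjured and 577 injured, with 2093084 and 3095511 UMIs and a median of 3003 and 4396 UMIs per cell. No cell barcode was shared between the libraries. All 8 microglial markers, Sall1 and Tmem119 among them, were seen in both libraries, and at least 1 of them in 100% of uninjured and 99.7% of injured cells. Of 7 border macrophage markers, 7 were seen in uninjured and 6 in injured cells (Cd163 was at 0), with a summed level of 69.8 and 128 CPM (UMIs of a gene divided by all UMIs of the library and scaled to 1000000), and Ly6c2, a monocyte marker, was at 0 in both. Endothelial markers summed to 111 and 24.9 CPM, oligodendrocyte markers to 215 and 115, astrocyte markers to 79.8 and 41.0 and oligodendrocyte precursor markers to 0.956 and 24.9. The 4 uninjured and 8 injured barcodes with at least 3 different endothelial or precursor markers held 0.438% and 0.626% of UMIs in the set, and the counts of genes past 2-fold given here were the same without them. There was 1 library per group, so no difference between them has a replicate check and no test was run. Intervals are exact 95% intervals that cover counting error only, and every comparison is between these 2 libraries.

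Promoter sequence was searched for 4 fixed patterns of known response elements near the start sites of these genes. RefSeq (GRCm38.p6) gave windows from 250 bases before to 50 bases after the start for 28 of the 34 genes, and Egr1, Egr3, Ier2, Hbegf, Rnd1 and Rrad were not matched. The CArG box, searched by its consensus on both strands, was in the windows of Zfp36 and Egr2, 2 of 28 genes (7.14%, against 1.81% of 27025 genes with a window). The cyclic AMP response element TGACGTCA, which reads the same on both strands, was in those of Arl4d, Btg2, Dusp1 and Ppp1r15a, 4 of 28 (14.3%, against 2.03%). The AP-1 site TGANTCA was in 0 of 28 (8.97% of all genes) and the EGR site GCGTGGGCG in 0 of 28 (0.707%), both searched on both strands. A match is only a description of these windows. Variants of these patterns and elements outside the windows were not searched, so a gene without a match may still have such an element. The Zfp36 window lies at chr7:28379179-28379478 on the minus strand and the Egr2 window shown at chr10:67537316-67537615 on the plus strand, and both are shown because they hold the CArG boxes, in capitals, which begin 58 and 72 bases before the start site of the window. Egr2 has 5 windows for its annotated starts, of which 4 hold a CArG box and the first, at chr10:67535249-67535548, does not. The box shown lies in the printed window alone. The other windows with a box begin at chr10:67537619 or beyond and hold a different one.
Zfp36: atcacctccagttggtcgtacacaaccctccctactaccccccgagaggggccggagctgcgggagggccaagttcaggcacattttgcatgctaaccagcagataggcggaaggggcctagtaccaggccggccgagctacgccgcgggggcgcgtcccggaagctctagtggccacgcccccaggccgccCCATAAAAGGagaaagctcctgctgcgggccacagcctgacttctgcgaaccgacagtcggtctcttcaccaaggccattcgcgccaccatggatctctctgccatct
Egr2: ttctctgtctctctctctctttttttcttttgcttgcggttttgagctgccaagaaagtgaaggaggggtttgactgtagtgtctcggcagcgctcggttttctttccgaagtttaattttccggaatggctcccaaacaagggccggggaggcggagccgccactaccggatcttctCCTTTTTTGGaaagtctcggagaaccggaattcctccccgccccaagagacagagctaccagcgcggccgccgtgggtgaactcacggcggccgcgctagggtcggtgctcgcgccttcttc
The Ppp1r15a window lies at chr7:45526219-45526518 and the Btg2 window at chr1:134079106-134079405, both on the minus strand, and both are shown because they hold the cyclic AMP response element, in capitals, which begins 12 and 166 bases before the start.
Ppp1r15a: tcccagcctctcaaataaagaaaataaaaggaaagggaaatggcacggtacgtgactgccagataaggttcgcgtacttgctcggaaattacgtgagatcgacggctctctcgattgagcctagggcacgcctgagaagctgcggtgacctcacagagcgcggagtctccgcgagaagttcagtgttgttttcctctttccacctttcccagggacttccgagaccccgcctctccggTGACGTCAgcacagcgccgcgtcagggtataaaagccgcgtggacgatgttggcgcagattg
Btg2: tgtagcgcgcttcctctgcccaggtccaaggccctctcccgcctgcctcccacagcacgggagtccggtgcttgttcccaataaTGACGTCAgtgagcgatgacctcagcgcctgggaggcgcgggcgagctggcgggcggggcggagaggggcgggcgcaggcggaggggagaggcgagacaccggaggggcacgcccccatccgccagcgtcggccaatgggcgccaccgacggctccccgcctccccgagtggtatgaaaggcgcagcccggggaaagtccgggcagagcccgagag

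The question of the first comparison was how the level of each gene differed between the injured and the uninjured library. Summed over all 34 genes, there were 45300 UMIs in uninjured cells, 2.16% (2.14 to 2.18%) of all UMIs, and 32716 in injured cells, 1.06% (1.05 to 1.07%). Of the 33 measured genes, 15 were at least 2-fold lower in injured cells, where 11.5% of 9066 measured genes were. Only Nab2 was at least 2-fold higher, where 7.22% of all measured genes were. All 33 also had at least 100 UMIs, and of the 4845 genes with that many 7.68% were at least 2-fold lower and 5.3% at least 2-fold higher. With CPM, the interval lay below 0 for 27 of the 33 (25.8% of all genes) and above 0 for Nab2 (17.1% of all genes). It spanned 0 for Dusp2, Rhob, Klf6, Nr4a1 and Rrad. The median log2 ratio, injured over uninjured, was −0.97 for the 33 genes and −0.15 over all measured genes. Scaling the libraries by the trimmed mean of M-values (TMM) or by DESeq2 size factors moved every log2 ratio up by 0.14 or 0.19. With either scaling 9 of the 33 stood at least 2-fold lower, against 8.67% and 7.84% of all genes, and Nab2 alone at least 2-fold higher, against 8.77% and 9.41%. The difference from 15 lies in Fos, Junb, Egr1, Zfp36, Klf2 and Ppp1r15a, which then lay inside 2-fold. Klf6 and Rhob changed sign under both, and are given here with no direction.

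**Figure D1:**
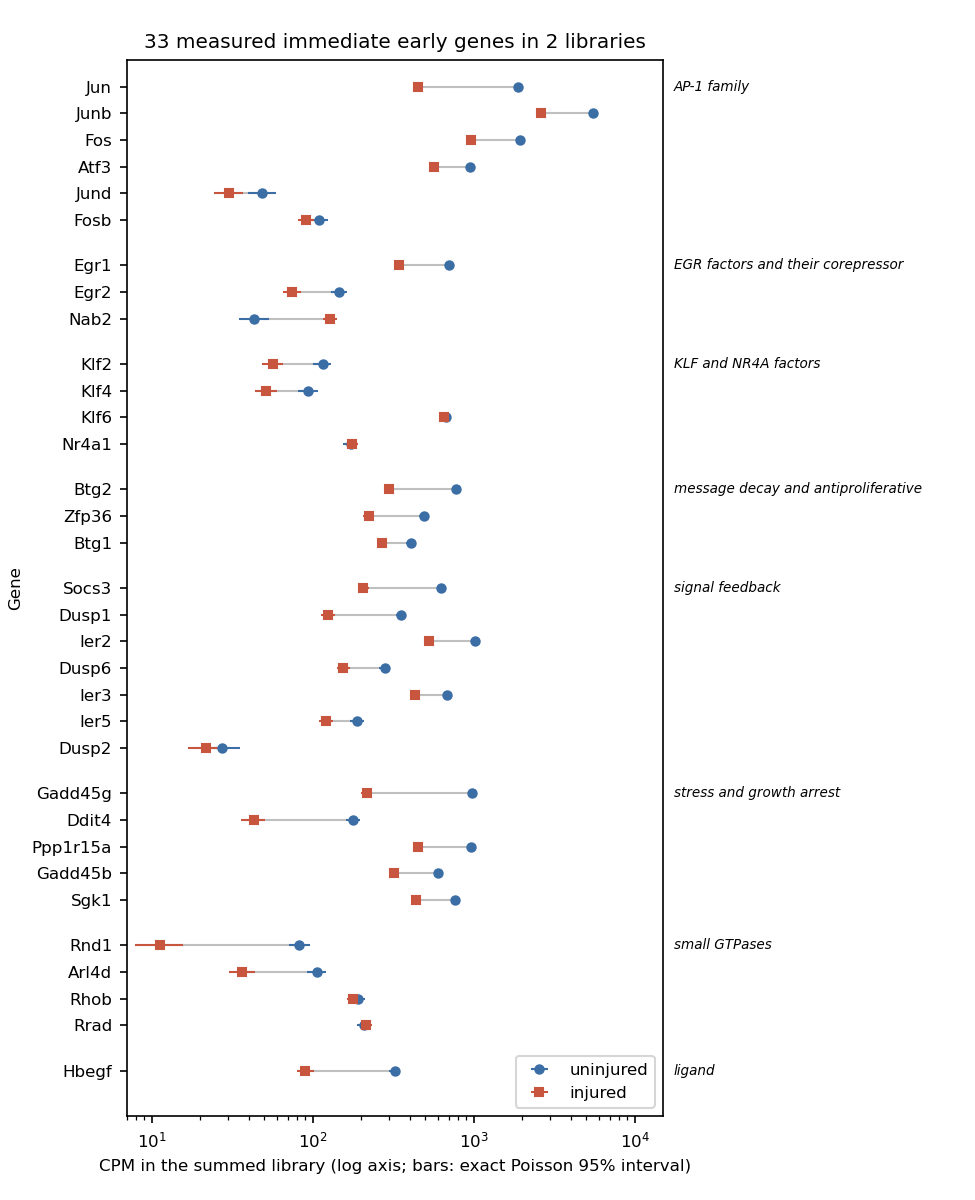
Level of each of the 33 measured genes in the uninjured and the injured library, in CPM on a log axis, grouped by role; horizontal lines are 95% counting intervals and there is 1 library per group. Junb stands highest in both libraries, Jun and Gadd45g are over 4-fold lower in injured cells, and Nab2 alone lies at least 2-fold higher there.

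The AP-1 family encodes the subunits of a dimeric transcription factor, with Fos proteins pairing with Jun proteins. With CPM, all 6 of its genes had intervals below 0, against 25.8% of all measured genes. At least 2-fold lower in injured cells were 3 of them, against 11.5% of all measured genes (median log2 ratio −0.88). Of these 3, Fos and Junb lay inside 2-fold under both other scalings. Junb, whose gene lies at chr8:84974484-84978718, held the most UMIs of the set, 11518 in uninjured and 8066 in injured cells. That is 5503 CPM (5403 to 5604) against 2606 CPM (2549 to 2663), a log2 ratio of −1.08 (−1.12 to −1.04). Its counting intervals did not meet, although Junb was still seen in 94.9% of uninjured and 83.8% of injured cells once every cell was thinned to 1500 UMIs (95.7% and 93.4% of kept cells unthinned). Fos, at chr12:85473890-85477273, was at 1942 and 959 CPM, a log2 ratio of −1.02 (−1.09 to −0.95). The share of thinned cells with Fos was 76.5% (72.9 to 79.8%) uninjured and 57.8% (53.7 to 62.0%) injured. Without thinning, in libraries of unequal depth, the shares of cells with Fos were 81.3% and 79.4%.

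Jun, at chr4:95049034-95052222, stood close to Fos in uninjured cells and well below it in injured cells. Its levels were 1873 CPM (1815 to 1933) and 452 CPM (429 to 476), a log2 ratio of −2.05 (−2.14 to −1.96), or 4.14-fold lower. The share of thinned cells with Jun went from 82.5% (79.2 to 85.4%) to 42.9% (38.7 to 47.1%), and from 88.9% to 71.6% unthinned. Atf3, a stress-induced member of the wider family, was at 951 and 569.9 CPM, a log2 ratio of −0.74 (−0.83 to −0.65). Jund, which is known for steady expression, was at 48.7 and 30.0 CPM (−0.70), and Fosb at 109 and 91.1 CPM (−0.26, −0.52 to −0.01). The log2 ratio of Fosb was −0.12 under TMM scaling, −0.08 under DESeq2 size factors and −0.02 after thinning. Its interval was computed for CPM alone. The family was thus uneven, with Jun furthest from its uninjured level and Fosb nearest to it.

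Of the EGR factors, which bind GC-rich promoters, Egr1 was at 708 and 345 CPM, a log2 ratio of −1.04 (−1.15 to −0.92), and was seen in 51.5% and 34.04% of thinned cells (64.5% and 60.1% unthinned). Egr2 was at 147 and 74.6 CPM (−0.97). Nab2, at chr10:127660918-127668568, encodes a corepressor that EGR proteins induce and that then holds them in check. It was at 43.5 CPM (35.0 to 53.4) in uninjured and 128 CPM (116 to 142) in injured cells, a log2 ratio of 1.56 (1.23 to 1.91). Nab2 thus stood 2.95-fold higher in the library where Egr1 and Egr2 were lower, and a link between these differences was not tested. The share of thinned cells with a Nab2 UMI was 7.45% (5.49 to 9.84%) and 16.0% (13.1 to 19.3%), or 11.2% and 39.5% unthinned. The log2 ratio of Nab2 was between 1.36 and 1.75 under both scalings, after thinning, as a mean per cell and in cells with Y-linked UMIs alone. Nab2 overlaps Stat6 on the opposite strand, with 99 and 95 Stat6 UMIs (log2 ratio −0.62). Strand use in counting is not given in the sources used here. Whether any reads of the antisense neighbours Stat6, Tmem194 and Gm16229 were counted as Nab2 could not be checked.

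The KLF factors and the nuclear receptor Nr4a1 had the ratios nearest 0 of the 8 role groups, with a median log2 ratio of −0.46. Klf2 was at 115 and 56.5 CPM (−1.03, −1.32 to −0.74), and Klf4 was at −0.87. Klf6 was at 669 CPM (634 to 705) and 649.7 CPM (622 to 679), levels whose intervals overlap. Nr4a1, often used as a reporter of recent stimulation, was at 172 and 176 CPM (0.04, −0.16 to 0.23). In thinned cells Klf6 was seen in 55.0% and 50.3% (69.4% and 78.2% unthinned), and its counts spread more in injured cells, where the variance was 2.65 times that of binomial draws at this depth against 1.68 times in uninjured cells.

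Among genes for message decay and for slowing division, Btg2 was at 779 and 297 CPM, a log2 ratio of −1.39 (−1.51 to −1.28). Btg2 binds the deadenylase complex that shortens poly(A) tails. Zfp36, whose product tristetraprolin marks AU-rich cytokine messages for decay, was at 489 and 222 CPM (−1.14, −1.28 to −0.997). Btg1, a relative of Btg2, was at 407 and 269 CPM (−0.60). Btg2 stood highest of the 3 in both libraries, while Zfp36 was above Btg1 in uninjured cells and below it in injured cells.

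Genes that feed back on signalling were lower by differing amounts, with 2 of 7 at least 2-fold lower, against 11.5% of all measured genes (median −0.85). Socs3, which blocks signalling by the gp130 cytokine receptors, was at 631 and 206 CPM (−1.62, −1.75 to −1.48). Dusp1, a nuclear phosphatase that removes phosphate from MAP kinases, was at 353 and 125 CPM (−1.50, −1.68 to −1.32). The shares of thinned cells with a UMI were 49.5% and 25.04% for Socs3 and 34.1% and 15.5% for Dusp1 (unthinned, 63.7% and 51.6%, and 48.5% and 35.9%). The small response gene Ier2 was at 1025 and 525 CPM (−0.97, −1.06 to −0.87), and Ier3 at 686 and 435 CPM (−0.66). Dusp6, the phosphatase of ERK, was at −0.85 and Ier5 at −0.64. Dusp2, another MAP kinase phosphatase, had an interval that spanned 0 (−0.33, −0.86 to 0.20), and its sign changed with the mean of per-cell CPM, at 0.0016.

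Stress and growth arrest genes had the lowest median of the 3 groups with 5 or more genes, −1.09. At least 2-fold lower were 3 of 5, against 11.5% of all measured genes, and Ppp1r15a lay inside 2-fold under both other scalings. Gadd45g, a GADD45 protein that activates stress kinases, lies at chr13:51846678-51848468. It was at 979 CPM (937 to 1023) in uninjured and 216 CPM (200 to 233) in injured cells, a log2 ratio of −2.18 (−2.31 to −2.05). Gadd45g was seen in 60.1% (56.1 to 64.0%) and 23.5% (20.03 to 27.2%) of thinned cells (73.5% and 46.4% unthinned), while its paralogue Gadd45b was at −0.91. Ddit4, an inhibitor of mTORC1, was at 178 and 43.0 CPM (−2.05, −2.35 to −1.76). Ppp1r15a, which restarts translation after stress by recruiting a phosphatase to eIF2α, was at 965 and 453 CPM (−1.09, −1.19 to −0.99). The kinase Sgk1, a target of glucocorticoids, was at 766 and 439.7 CPM (−0.80). Every gene of the group was lower in injured cells under CPM and under both other scalings.

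The small GTPases ran from the lowest log2 ratio of the set to values near 0. Rnd1, an atypical small GTPase that loosens actin stress fibres, was at 82.7 CPM (70.8 to 95.9) and 11.3 CPM (7.88 to 15.7), a log2 ratio of −2.87 (−3.44 to −2.34). It rests on 173 and 35 UMIs, and 45.7% of the injured UMIs were in the 10 cells with most of them. Arl4d was at 106 and 36.5 CPM (−1.54, −1.88 to −1.21). Rhob, at −0.11 (−0.30 to 0.08), and Rrad, at 0.05 (−0.13 to 0.22), had intervals that spanned 0. Hbegf, the set's only ligand, a growth factor of the EGF family, was at 324 and 90.1 CPM (−1.85, −2.05 to −1.64).

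Counting without strand would also bear on 6 more genes that overlap an opposite-strand gene: Jun, Junb, Jund, Dusp1, Zfp36 and Ppp1r15a. For Junb the neighbour is Prdx2, with 254 and 546 UMIs, and for Jun it is Junos, with 6 and 5 UMIs, both far below the UMIs of the gene itself.

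Per-cell sums asked whether the lower level was shared by all injured cells. Thinned to 1500 UMIs, which 604 uninjured and 567 injured cells reached, uninjured cells held a median of 33 UMIs of the set (quartiles 21 and 44, range 0 to 115). Injured cells held a median of 15 (quartiles 9 and 25, range 0 to 80). The ranges overlapped over most of their length, yet 64.0% of injured cells lay below the lower uninjured quartile, 12.3% above the uninjured median and 3.88% above the upper uninjured quartile. The variance of the sum was 9.97 times that of binomial draws in uninjured and 9.23 times in injured cells. Cells of both libraries thus differed among themselves by far more than the sampling of 1500 UMIs gives. An uninjured cell showed a median of 14 different genes of the set (quartiles 10 and 16), and an injured cell 9 (quartiles 6 and 12).

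**Figure D2:**
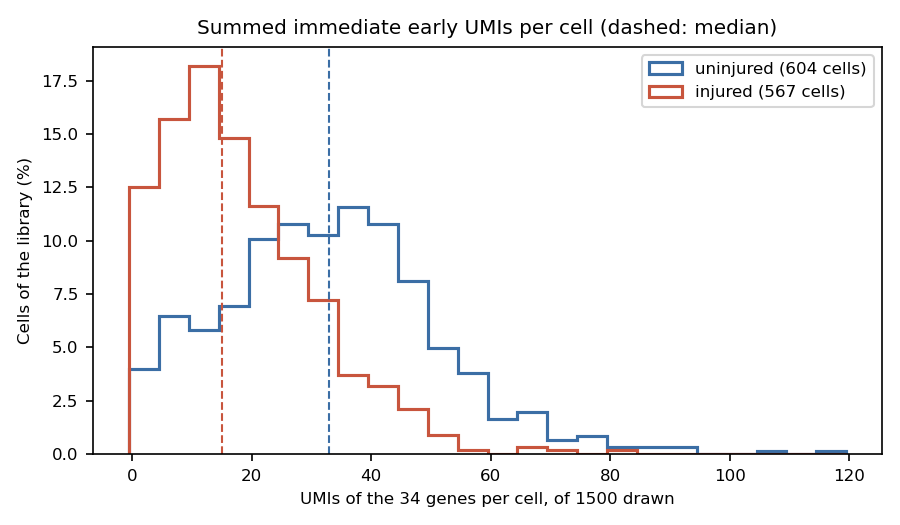
Share of cells of each library by the number of UMIs of the 34 genes in 1500 UMIs of the cell, with the medians of 33 and 15 marked. The injured distribution is shifted to low sums and has its tail under the bulk of the uninjured cells.

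Depth moved with the sum and is given here beside it. In injured cells, Spearman's rho between the thinned sum and the total UMIs of the cell was −0.31, and in uninjured cells −0.10. With injured cells ordered by depth and cut into 4 equal classes, the set took, from the shallowest up, 1.63%, 1.30%, 1.05% and 0.818% of UMIs, and in uninjured cells 2.22%, 2.39%, 2.25% and 1.95%. Within the same window of depth the injured share was still the lower one. It was 2.32% uninjured and 1.60% injured between 1500 and 2500 UMIs, 2.36% and 1.64% between 2500 and 3500, 2.07% and 1.26% between 3500 and 4500, and 1.84% and 1.07% between 4500 and 6000. The difference therefore stood in all 4 windows and was smaller in the shallower ones.

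The libraries also differed in sex-linked transcripts. Of the uninjured cells, 235 had Y-linked UMIs without Xist and 6 the reverse, and of the injured cells 147 and 213. In cells with Y-linked UMIs alone, the set took 2.21% (2.18 to 2.24%) of uninjured and 1.06% (1.04 to 1.08%) of injured UMIs, and injured cells with Xist alone stood at 1.18% (1.16 to 1.20%). The difference was as large within the Y-linked cells as over all cells. Some log2 ratios changed sign there. Fosb went from −0.26 to 0.007, Nr4a1 from 0.04 to −0.47 and Rrad from 0.05 to −0.12.

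The genes of the set moved together from cell to cell to unequal degrees. Fos correlated with the sum of the other members at a Spearman's rho of 0.56 in uninjured and 0.52 in injured cells, and Junb at 0.50 and 0.61. Ier2 was at 0.49 and 0.51, Jun at 0.51 and 0.42, and Egr1 at 0.42 and 0.45. These AP-1, EGR and IER genes stood at the head of the order in both libraries. Gadd45g went from 0.41 to 0.27 and Socs3 from 0.38 to 0.19, while Klf6 went from 0.26 to 0.39. Jund (−0.01 and 0.04), Dusp2 (−0.01 and 0.11) and Dusp6 (0.02 and 0.09) hardly followed the rest. Nab2 was at −0.01 in uninjured and 0.22 in injured cells. All correlations here are over cells of 1 library at equal depth and are descriptions, and low counts hold them near 0.

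Pairs of members were compared where both were seen in at least 10% of thinned cells, which gave 435 pairs of 30 genes in uninjured and 300 pairs of 25 genes in injured cells. The median rho was 0.09 and 0.11, and 60 pairs reached 0.2 in each library. The strongest pair was Egr1 with Fos in uninjured cells (0.39, and 0.35 injured) and Ier2 with Junb in injured cells (0.46, and 0.36 uninjured). Fos with Gadd45g was at 0.35 and 0.21, and Btg2 with Junb at 0.26 and 0.38. Gadd45g with Socs3 was at 0.18 in uninjured cells and lowest of all pairs in injured cells, at −0.06. Egr1 with Nab2 was at 0.07 in injured cells. Pairs within 1 role had a median rho of 0.11 and 0.12, and pairs across roles 0.09 and 0.11, so role set the pairs little apart.

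Cells were then clustered on all other genes, with the 34 left out, to see where the set stood high. The other genes used include some that vary with the set, so levels by cluster are descriptions. In uninjured cells the highest share was in cluster 5, led by Cd27, Hes1 and Gadd45a, where 298 cells held 2.65% (2.62 to 2.69%) of UMIs in the set. Cluster 3, led by Baiap2, Hspa1a and Tnpo3, followed with 2.37%, and cluster 0, led by Zfp691, Bmp2k and Clasp2, with 2.31%. Cluster 1, led by Il16 and P2ry13, had 148 uninjured cells with 1.25% (1.22 to 1.28%). Of the 62 uninjured cells with the highest sums, 43 were in cluster 5, which held 265 of all 604 thinned uninjured cells. Of the 33 measured genes, 30 were higher in uninjured cluster 5 than in uninjured cluster 1, 19 of them at least 2-fold, and Jund, Dusp6 and Nab2 were lower. Clusters 5 and 1 were compared for their high and low summed shares of the same genes. That most genes were higher in cluster 5 follows from this choice, and the share over all genes was not computed. Among genes chosen after their values were seen, Fos was at 2669 and 767 CPM, Junb at 6068 and 3689 CPM, Egr1 at 963 and 142 CPM, and Rnd1, on 111 and 5 UMIs, at 124 and 11.4 CPM. Endothelial markers were also highest in cluster 5, at 207 CPM in all, and their part in its share was not tested.

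Many injured cells lay in clusters with few uninjured cells. Cluster 8, led by Igf1, Lilr4b and Lpl, held 149 injured cells with 0.892% (0.875 to 0.909%) of UMIs in the set. Cluster 9, led by the interferon-induced genes Rsad2, Iigp1 and Ifi205, stood at 1.18%, and cluster 6, led by the mitotic genes Cdca8, Nusap1 and Pbk, at 0.844%. Cluster 2, led by H2-Eb1, H2-Aa and the border macrophage marker Mrc1, was at 1.63% in 9 uninjured and 0.661% in 21 injured cells. The highest injured shares were in cluster 5, at 2.21% in 15 cells, and cluster 0, at 1.56% in 33 cells. Cluster 3, at 1.53% in 112 cells, and cluster 4, at 1.46% in 97 cells, came next. In the uninjured library clusters 5, 0 and 3 had 298, 119 and 71 cells, but cluster 4 had 14. Nab2 stood highest in injured cluster 4, led by Slc7a11, Plaur and Ccl5, at 267 CPM, and in cluster 9 at 251 CPM, and it was at 106 CPM in cluster 8. Klf6 was also highest in injured cluster 4, at 1161 CPM.

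**Figure D3:**
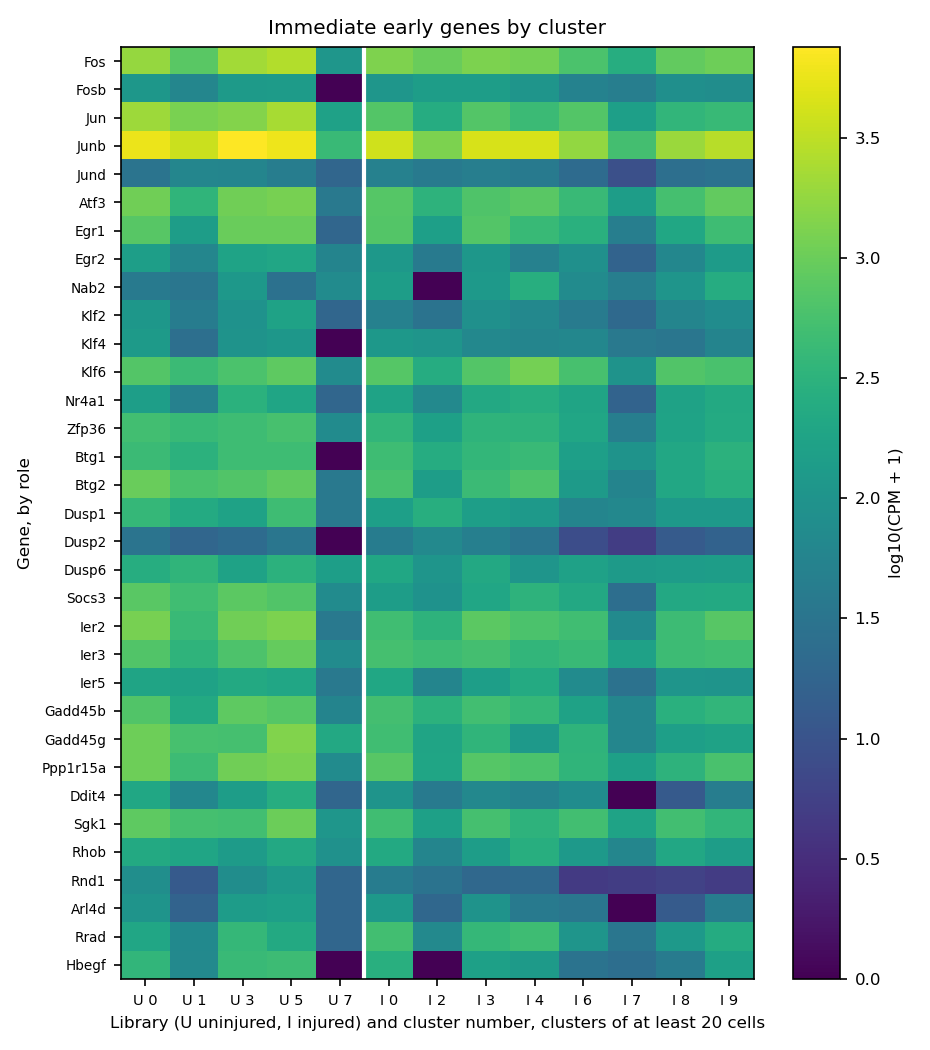
Level of each measured gene by cluster and library, as log10(CPM + 1), for clusters with at least 20 cells in a library (U uninjured, I injured). Cluster 7 is darker, and so lower, than the other clusters for most genes in both libraries, and Nab2 is brightest in injured clusters 4 and 9.

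In 5 clusters each library had at least 10 cells, and in 4 of them the summed level of the set was lower in injured cells. The log2 ratio was −0.57 (−0.64 to −0.50) in cluster 0, −0.64 (−0.69 to −0.58) in cluster 3, −0.54 (−0.63 to −0.45) in cluster 4 and −0.26 (−0.35 to −0.18) in cluster 5. Each of these 4 was nearer to 0 than the −1.03 of the 33 genes summed over all cells, but cluster 2, with 9 uninjured and 21 injured cells, was further from it, at −1.30 (−1.46 to −1.14). The median gene of the set was at −0.37, −0.53, −0.55 and −0.17 in these clusters, against −0.06, 0.02, 0.10 and −0.10 for all genes measured in them. The fifth was cluster 7, at 0.31 (0.03 to 0.61). In the other clusters 1 library had 1 to 4 cells, too few to compare.

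Cluster 7 stood apart from all others by its low share. Its leading genes over both libraries were Cst7, Spp1 and Apoe, but Spp1 was at 18.3 CPM in its uninjured and 22030 CPM in its injured cells and Apoe at 2066 and 47488 CPM, so these genes describe its injured cells. Its 31 uninjured and 58 injured cells held 0.214% (0.177 to 0.256%) and 0.265% (0.246 to 0.286%) of UMIs in the set. Its cells had a median of 1592 UMIs uninjured and 3751.5 injured, and 17 and 54 of them reached 1500 UMIs. Other uninjured clusters with at least 9 cells had medians of 2980.5 to 3705 UMIs. The part of depth in the low share was not tested. Among the cells of cluster 7 that reached 1500 UMIs, the median cell had 2 and 1 UMIs of the set. All 3 uninjured cells with a sum of 0 and 14 of the 18 such injured cells were in cluster 7. Junb was seen in 35.3% and 33.3% of its thinned cells and Fos in 17.6% and 14.8%. No cell type in these libraries is known to lack such genes, so the share of cells that free RNA alone would give was not measured. The cells of cluster 7 still carried microglial markers, at 15757 CPM in all. Malat1, a nuclear non-coding RNA, was at 2231 and 4640 CPM there, against 18291 to 28476 CPM in the other uninjured and 8156 to 22681 CPM in the other injured clusters with at least 9 cells of the library. Of the clusters with fewer cells, cluster 6 (1 uninjured cell) was at 7627 CPM, cluster 8 (2 uninjured cells) at 8179 CPM, cluster 9 (2 uninjured cells) at 19344 CPM and cluster 1 (4 injured cells) at 22909 CPM. The nuclear RNA Neat1 was at 0 and 27.9 CPM, the mitochondrial share at 3.74% and 2.74% and the ribosomal protein share at 18.8% and 18.5%. Low Malat1 and a low share of the set thus fell in the same cells, and the part of RNA quality in the low share was not tested. Without cluster 7, 12 of the 33 genes were at least 2-fold lower and the median log2 ratio was −0.90. The share of all genes at least 2-fold lower was not computed for that setting.

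**Figure D4:**
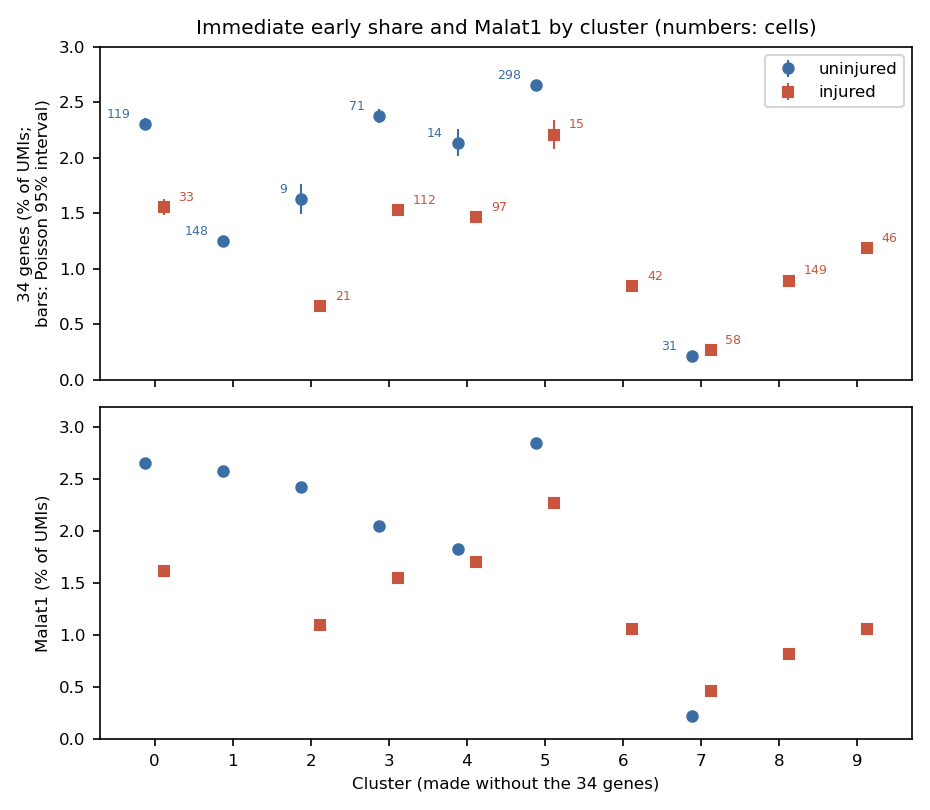
Share of UMIs in the 34 genes by cluster and library with its 95% counting interval (upper panel) and share of UMIs from Malat1 (lower panel); small numbers are cells, and clusters with few cells in a library are left out. Cluster 7 lies lowest on both measures in both libraries.

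Genes outside the set were ranked by Spearman's rho between their thinned count and the sum of the set, over 1847 genes in uninjured and 1763 in injured cells seen in at least 10% of cells. A rho of at least 0.2 was found for 66 genes in uninjured and 92 in injured cells, and of at most −0.2 for 10 and 50. Over the 1526 genes compared in both, 49 reached 0.2 in both, which is 49 of 62 in uninjured and 49 of 92 in injured cells. Ubb, a stress-inducible ubiquitin gene, was at 0.42 in uninjured and 0.50 in injured cells. The SOCS-box gene Wsb1 was at 0.43 and 0.51, the RNA helicase Ddx5 at 0.41 and 0.48, and the histone variant gene H3f3b at 0.46 and 0.44. The NF-κB targets Nfkbia and Icam1 were at 0.43 and 0.41 in uninjured cells and 0.42 and 0.43 in injured cells. These 6 genes were among the 10 highest in both libraries. Without cluster 7 they ran from 0.38 (Ddx5) to 0.43 (H3f3b) in uninjured cells. In injured cells they then ran from 0.31 (Nfkbia) to 0.46 (Ubb).

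Other genes were linked in 1 library more than in the other, a difference that was not tested. The chaperone Hspa8 was at 0.45 in uninjured and 0.35 in injured cells and Marcksl1 at 0.40 and 0.37. Ftl1, the ferritin light chain, was at 0.40 and 0.07. Malat1 was at 0.26 in uninjured and 0.59 in injured cells, and at 0.51 in injured cells without cluster 7. Among inflammatory genes, Ccl4 was at 0.13 and 0.44 and Il1a at 0.31 and 0.42. Without cluster 7, Ccl4 was at 0.35 and Il1a at 0.37 in injured cells. At the low end stood Tmsb4x, an actin-binding peptide gene, at −0.42 and −0.51, and C1qa at −0.32 and −0.30. In uninjured cells C1qb (−0.32) and Itm2b (−0.31) followed, and in injured cells Fcer1g (−0.37), the lysosomal protease gene Ctsd (−0.36) and Mif (−0.29). Cst3, which takes the most UMIs of all genes, was at −0.31 in uninjured and 0.29 in injured cells.

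**Figure D5:**
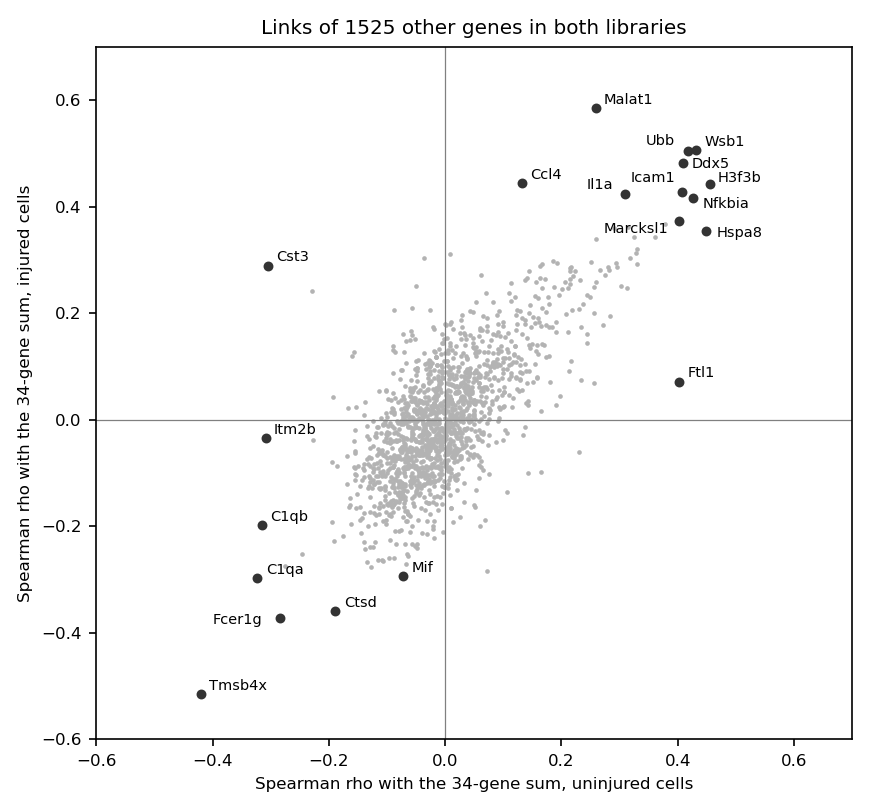
Spearman's rho with the per-cell sum of the set in uninjured cells (horizontal) and injured cells (vertical) for 1525 genes compared in both libraries, with the named genes labelled. Wsb1 and Ubb lie high in both, Tmsb4x lies low in both, and Cst3 is low in uninjured and high in injured cells.

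Lists of genes from related pathways were read the same way, as a sum per cell against the sum of the set. The NF-κB response list had a rho of 0.57 in uninjured and 0.60 in injured cells, heat shock 0.48 and 0.45, and immediate early genes outside the set 0.41 and 0.54. Cytokines and chemokines were at 0.30 and 0.46. Homeostatic microglial genes were at −0.34 in uninjured and 0.28 in injured cells, and damage-associated genes at −0.03 and −0.26. Cst3 held 155778 of the 213045 uninjured and 54149 of the 100386 injured UMIs of the homeostatic list. Cst3 alone was at −0.31 and 0.29, and the list was not summed without it. Interferon genes were at −0.05 and −0.16 and division genes at 0.08 and −0.05. The kinases and factors upstream of the set were at 0.11 and 0.28. A rho of 0.2 in both libraries was reached by NF-κB response, heat shock, cytokines and chemokines, and immediate early genes outside the set. The upstream list was positive in both but below 0.2 in uninjured cells. In uninjured cells the interferon list had a mean of 0.375 UMIs in the 160 cells with the lowest sums of the set. Its mean was 0.194 UMIs in the 155 cells with the highest sums, and the division list had 0.2 and 0.303. Low counts hold rho near 0, so whether the interferon and division lists followed the set in uninjured cells was not decided.

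Between the libraries these lists differed from the set. Of 24 measured immediate early genes outside it, 3 were at least 2-fold lower (12.5%, against 11.5% of all measured genes) and 6 higher (6 of 24, against 7.22%) in injured cells (median −0.09). Nr4a2, an orphan nuclear receptor, was at 3.34 and 16.8 CPM (2.33, 1.18 to 3.71), the clock repressor Bhlhe40 at 18.2 and 75.6 CPM (2.06, 1.56 to 2.59) and the kinase Pim1 at 29.1 and 94.98 CPM (1.70, 1.30 to 2.13). Arc went the other way, from 34.4 to 10.3 CPM (−1.73, −2.38 to −1.11). Immediate early genes outside the set thus stood on both sides of 0.

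The upstream list had 2 of 19 measured genes at least 2-fold lower and 0 higher (median −0.25). That share, 10.5%, is near the 11.5% of all measured genes and is no result about the list. By the naming rule, Srf, the CArG-box factor, was at 22.9 and 10.0 CPM (−1.20, −1.90 to −0.51) and the kinase Map2k2 at 44.9 and 20.7 CPM (−1.12, −1.60 to −0.65), while Mapk14 was at −0.92 and Mef2a at −0.83. Of 13 measured heat shock genes, Hspa1a, at 2170 and 652 CPM (−1.74, −1.81 to −1.66), and Hspa1b (−1.35) were at least 2-fold lower (15.4%), and Dnajb1 was at −0.91 and Bag3 at −0.68. Hspa1a and Hspa1b are near-identical copies, so their split is uncertain. Of 12 NF-κB response genes only Irf1 passed 2-fold, 8.33% and again no more than over all genes (146 and 43.9 CPM, −1.73, −2.03 to −1.43), with Rela at −0.77 and, above 0, Nfkbiz at 0.91 and Bcl3 at 0.92 (−0.16 to 2.13). The cytokine list had 6 of 12 at least 2-fold higher, against 7.22% of all measured genes, and 1 lower, against 11.5% (median 0.96). Ccl7 was at 25.8 and 160 CPM (2.63), Cxcl2 at 495 and 2783 CPM (2.49), Cxcl10 at 1.75 and Il6, on 35 and 18 UMIs, at −1.52. The set and the cytokines thus stood on opposite sides of 0 between the libraries, although their sums per cell were positively correlated within each.

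Of 12 homeostatic microglial genes 8 were at least 2-fold lower, against 11.5% of all measured genes (median −1.34). In contrast all 11 damage-associated genes (median 3.60), all 9 interferon genes (3.38) and 7 of 8 division genes (2.99) were at least 2-fold higher. Of all measured genes 7.22% were at least 2-fold higher. The state of the injured cells therefore moved with the lower level of the set, and its part in that level was not tested.

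Cells grouped by Ccl4 show how the set crossed with chemokine expression. In uninjured cells the set took 1.97% of UMIs where Ccl4 was 0 in 1500 UMIs, 2.14% at 1 to 4 UMIs and 2.40% at 5 or more. In injured cells the shares were 0.657%, 0.980% and 1.31%, with medians of 7, 14 and 21 UMIs of the set in 1500. The step was steeper in injured cells, and even their highest class stood below the lowest uninjured class. Injured cells with at least 5 Spp1 UMIs in 1500 held 0.895% against 1.24% at 0, and injured cells with at least 5 P2ry12 UMIs 1.52% against 0.910% at 0. These classes differed in depth, with medians of 7430 against 3709.5 UMIs for Spp1 and 3248 against 6435.5 for P2ry12. The part of depth in the shares was not tested. In uninjured cells the share was 1.82% at 0 P2ry12 UMIs, 2.24% at 1 to 4 and 2.11% at 5 or more.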

How the data were processed

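The authors deposited UMI counts per gene and barcode for 2 10x Chromium version 2 libraries, and per the submitters' processing notes used STAR, Cell Ranger 2.0.1, Seurat 2.1.0 and GRCm38.p5 (mm10). Which annotation and strand setting they counted with is not given in the sources used here. Gene positions are from GENCODE M21 (GRCm38). A barcode was kept if it had 200 or more genes and no more than 10% mitochondrial UMIs, which left 695 of 705 uninjured and 577 of 580 injured, and no doublet caller was run. Counts were summed per library and scaled to CPM, and genes with at least 20 UMIs were compared. Intervals are exact Poisson or Clopper-Pearson 95% intervals. Cells were thinned to 1500 UMIs without replacement for shares of cells, sums and Spearman correlations, leaving out 91 uninjured and 10 injured shallower cells. Clusters came from scanpy 1.11.5 (Leiden, resolution 0.8, 20 components, 15 neighbours, 2000 variable genes). Scaling alternatives were edgeR 4.0.16 TMM and DESeq2 1.42.0 size factors, with no test by either. The calculations were tested on simulated data. Values are given for the 12 members with most UMIs and for every member at least 2-fold away whose interval keeps to 1 side of 0. Up to 4 genes were named per other list by largest ratio, and 10 highest and 5 lowest links per library, of which 1 gene is not reported here. The promoters with a cyclic AMP response element were chosen for printing after the matches were seen. The members, lists and alternatives were chosen with earlier results of these data known. Each group is 1 library, so intervals do not cover variation between animals.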

Additional observations from a re-analysis of the deposited data

How the results depend on the processing

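No paired analysis was possible because each group has 1 library. Of 33 measured genes, the number at least 2-fold lower in injured cells was 15. It came to 9 under TMM scaling, to 9 under the size factors of DESeq2 and to 9 for the mean of per-cell CPM. In the other alternatives, including 2 added after the data were seen, it was between 11 and 17, and the median log2 ratio was between −0.78 and −1.001 over all alternatives. Nab2 was the only gene at least 2-fold higher in each. Of all measured genes, 11.5% were at least 2-fold lower in the main setting, 8.67% under TMM scaling and 7.84% under DESeq2 size factors. Among genes with at least 100 UMIs the share was 7.68%. For the remaining alternatives it was not computed. The median sum per cell in 1500 UMIs was 24 uninjured and 11 injured without Junb, against 33 and 15. Without thinning, 102 genes in uninjured and 147 in injured cells reached a rho of 0.2, against 66 and 92. Depth limits the rarest members most, Egr3 with 3 UMIs in all and Dusp2 with 124, and a share of cells with a UMI is not a share of cells expressing the gene.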
